A study of Mus musculus with 32 samples.

Results

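The Notch pathway was followed through 10 of its genes in mouse hindbrain tumors: the receptors Notch1, Notch2 and Notch3, the ligands Dll1, Dll3, Jag1 and Jag2, and the target genes Hes1, Hes5 and Hey1. The genes were taken by symbol from a table of counts for 37310 genes. All 10 were found in it, and all 10 were among the 21024 genes that passed the filter on low counts (a CPM above 1 in at least 3 tumors) and were tested. The tumors were 6 GMYC and 8 GTML biopsies. GMYC mice are Glt1-tTA/TRE-MYC animals, in which a tetracycline transactivator expressed from the promoter of Glt1 (Slc1a2, the astroglial glutamate transporter) switches on a MYC transgene. GTML mice carry the same driver with a MYCN transgene in place of MYC, and the transgenic crosses of the study had an FVB/N background. Both models were Tet-OFF, so the transgene was on in the absence of doxycycline. The ages of the animals were not given with the samples, and each tumor is 1 bulk biopsy. The study's methods describe part of the GTML libraries as generated earlier, and the sample labels do not say which, so the occasion of sequencing and the model cannot be told apart.

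Notch is a cell-contact pathway. A Delta or Jagged ligand on one cell binds a Notch receptor on its neighbor, and the receptor is then cut, first by an ADAM protease and then by gamma-secretase. The released intracellular part joins RBPJ and a Mastermind coactivator on DNA and turns on HES and HEY repressors, which hold back proneural factors and keep neural progenitors undifferentiated. Dll3 differs from the other ligands, since it acts mainly inside the cell and does not activate receptors on neighbors. In blood vessels the same pathway is used by endothelial cells (Notch1, Notch4, Dll4, Jag1) and by the mural cells around them (Notch3). In bulk tumors, fewer cells of a type and less RNA per cell cannot be told apart.

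Promoters of the members were read from RefSeq, build GRCm38.p6, as 250 bases before to 50 bases after the start site. The table held 8 of the 10 members, all but Hes1 and Hey1. Each promoter was searched on both strands for the RBPJ motif, GTGGGAA or its complement TTCCCAC, which 6.38% of 32851 mouse promoters held. Of the 8, Hes5 had a match. It held 2, as 0.256% of all promoters held 2 or more, and their first bases were 226 and 83 bases before the start site. The Hes5 promoter is shown for this pair of matches, which are in capitals, and those of Jag1 and Dll3 because these ligands were called different between the models below. No letter of the last 2 is in capitals, since neither held the motif. They lie at chr4:154960673-154960972 on the plus strand (Hes5), chr2:137116471-137116770 on the minus strand (Jag1) and chr7:28301736-28302035 on the minus strand (Dll3).
Hes5: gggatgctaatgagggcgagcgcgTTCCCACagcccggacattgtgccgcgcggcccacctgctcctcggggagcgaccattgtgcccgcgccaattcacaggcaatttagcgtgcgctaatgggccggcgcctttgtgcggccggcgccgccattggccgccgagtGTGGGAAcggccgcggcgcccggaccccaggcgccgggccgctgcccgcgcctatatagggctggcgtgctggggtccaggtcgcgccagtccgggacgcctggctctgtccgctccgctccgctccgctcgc
Jag1: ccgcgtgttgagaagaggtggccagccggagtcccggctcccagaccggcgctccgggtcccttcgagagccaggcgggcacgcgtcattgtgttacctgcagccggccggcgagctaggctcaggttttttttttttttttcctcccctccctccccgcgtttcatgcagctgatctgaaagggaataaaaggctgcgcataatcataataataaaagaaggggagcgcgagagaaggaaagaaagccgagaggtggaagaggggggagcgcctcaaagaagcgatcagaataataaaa
Dll3: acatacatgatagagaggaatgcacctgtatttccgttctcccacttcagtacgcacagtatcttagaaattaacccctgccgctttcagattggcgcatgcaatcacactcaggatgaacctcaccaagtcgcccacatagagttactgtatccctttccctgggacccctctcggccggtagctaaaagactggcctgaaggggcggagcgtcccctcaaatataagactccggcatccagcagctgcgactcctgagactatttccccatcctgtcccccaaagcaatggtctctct
In the other promoters of the table, Notch1, Notch2, Notch3, Dll1 and Jag2, no match lay within these windows, and none of the 8 held the E-box CACGTG, which 7.15% of all promoters held. The counts were made on another build, mm9, so no coordinate here belongs to a count.

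Total counts were 6218378 to 7279811 in GMYC and 4602294 to 6317404 in GTML tumors. Myc marked the first model, with 33.4 to 166 CPM in GMYC against 2.60 to 8.68 in GTML tumors, and Mycn the second, with 119 to 191 CPM in GTML against 7.65 to 34.4 in GMYC tumors. CPM here is the count of a gene relative to the library's total after TMM normalization. Otx2 and Crx, photoreceptor-lineage factors active in tumors of this kind, and Slc1a2 were expressed in every tumor, with means of 316, 385 and 702 CPM in GMYC and 323, 326 and 587 CPM in GTML tumors. GTML tumor 2 stood apart, with the lowest Slc1a2 (256 CPM) and the lowest sum of 7 medulloblastoma and neuronal markers (770.4 CPM, against 973 CPM or more in the other tumors). Some comparisons of the study left out a GTML tumor as unlike the others. The labels do not mark it, so all 8 are used here. Counts of small nucleolar RNAs, as a share of each library, split the tumors at 0.3%. GMYC 1 to 4 with GTML 1 and 2 lay above it, and GMYC 5 and 6 with GTML 3 to 8 below it. No label names this split, but it follows the order of the samples in the series, with those above it listed first. What it stands for was not tested. Values within both sides are therefore given beside the called members. Counts of Y-linked genes were 2115 to 3378 in the 6 GMYC tumors. They were 1102 to 2220 in GTML tumors 1, 4, 6 and 7, and 4 to 16 in GTML tumors 2, 3, 5 and 8. Y-linked expression was thus unbalanced between the models. The main fit has no term for it, and fits with a Y-linked covariate are given below.

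Between the models, 2 ligands and Hey1 were called different, and none of the 3 receptors was. Jag1 was higher in GTML tumors, and Dll3 and Hey1 were higher in GMYC tumors. These were 3 of the 10 members called at an adjusted p under 0.05 by edgeR's quasi-likelihood test, where 21.2% of all genes tested were called. By direction, 1 member was called higher in GTML, against 11.5% of all genes, and 2 lower, against 9.71%. The median log2 fold change of the members, GTML over GMYC, was 0.38, and that of all genes was 0.04. Without GTML tumor 2 the members called were the same ones, Jag1 (log2 fold change 0.69, edgeR adjusted p = 0.00255), Dll3 (-1.19, adjusted p = 0.0319) and Hey1 (-0.73, adjusted p = 0.0135). The plot of the members by tumor shows the single values.

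**Figure D1:**
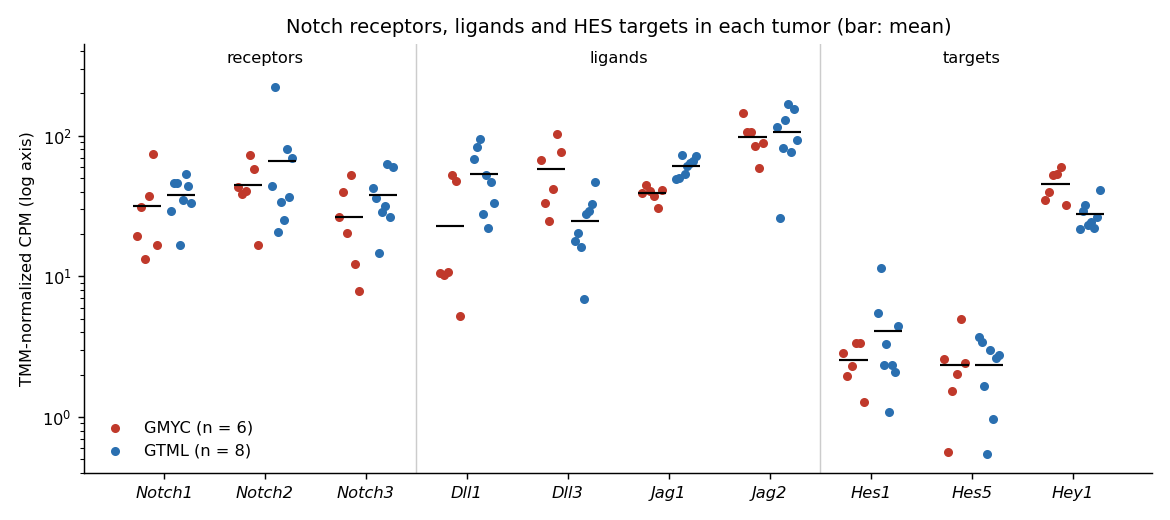
TMM-normalized CPM on a log axis for the 10 members, with 1 point per tumor (red, 6 GMYC; blue, 8 GTML) and a black bar at the mean of each model. The points of Jag1 separate by model, GTML tumor 2 stands above the other tumors in Notch2 (220.7 CPM), and the means of Hes1 and Hes5 lie below those of the other members, with some points overlapping.

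Among the ligands, Jag1, a Jagged ligand that activates Notch receptors, showed the smallest spread within each model. It stood at 39.3, 44.8, 40.4, 37.3, 30.7 and 41.4 CPM in GMYC tumors 1 to 6, and at 49.4, 50.3, 73.5, 53.6, 61.2, 64.0, 66.0 and 72.1 CPM in GTML tumors 1 to 8. The lowest GTML tumor was above the highest GMYC tumor, and Jag1 was the only member of the 10 whose models did not overlap, where 4.62% of all genes tested had no overlap (2.14% with GTML above and 2.48% with GMYC above). It was 1.57-fold higher in GTML tumors, a log2 fold change of 0.65 (SE 0.130, edgeR adjusted p = 0.00639). This value lay between 0.59 and 0.69 when each tumor was left out in turn, and Jag1 was called in all 14 of these fits. Within the tumors of higher small nucleolar RNA share it was 0.31 (adjusted p = 0.487, 4 GMYC against 2 GTML), and within those of lower share 0.84 (adjusted p = 0.0294, 2 against 6).

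Dll3 went the other way. GMYC tumors 1 to 6 held 67.3, 33.5, 24.9, 41.6, 103.7 and 76.6 CPM, and GTML tumors 1 to 8 held 17.99, 20.5, 16.1, 6.93, 27.6, 29.3, 32.6 and 46.9 CPM. The highest 3 values were all GMYC tumors (1, 5 and 6), and the other 3 GMYC tumors lay within or close to the upper GTML values. Dll3 was 2.34-fold lower in GTML tumors, a log2 fold change of -1.23 (SE 0.371, edgeR adjusted p = 0.029). The call rested on those 3 tumors, since it was lost without GMYC tumor 1 (-1.16, adjusted p = 0.0592), without GMYC tumor 5 (-0.98, adjusted p = 0.083) or without GMYC tumor 6 (-1.13, adjusted p = 0.0573). It was also lost with a covariate from Y-linked genes, whose counts were at most 16 in GTML tumors 2, 3, 5 and 8 (-1.42, adjusted p = 0.0776). The within-side values were -1.11 (adjusted p = 0.35, higher share) and -1.77 (adjusted p = 0.0409, lower share). Markers of oligodendrocyte precursors, cells that also express Dll3, followed it in some tumors and not in others. Their summed level over 6 markers was 18.7 to 144 CPM in GMYC tumors and 10.4 to 85.2 CPM in GTML tumors. Of the 6, 2 were called lower in GTML, Olig1 and Olig2, where 9.71% of all genes were. The sum was highest in GMYC tumors 5 and 6, which had the most Dll3. By contrast, GMYC tumor 3 had a sum of 79.9 CPM with the least Dll3 of its model, GTML tumor 2 had the highest GTML sum with Dll3 at 20.5 CPM, and GTML tumor 8, with the most Dll3 of its model, had a sum of 34.1 CPM. No marker of that list was at 0 in all tumors, and its part in the Dll3 result was not tested.

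Dll1, the Delta ligand of dividing neural progenitors, was at 10.6, 10.3, 10.7, 52.4, 47.3 and 5.23 CPM in GMYC tumors 1 to 6 and at 68.8, 83.0, 94.3, 27.7, 52.8, 22.1, 46.6 and 33.3 CPM in GTML tumors 1 to 8. GMYC tumors fell into 4 with low values and 2, tumors 4 and 5, inside the GTML range. The log2 fold change of 1.24 (SE 0.493, 95% interval 0.19 to 2.28) did not pass the adjusted threshold in edgeR (adjusted p = 0.0889). It passed with DESeq2 (1.26, adjusted p = 0.0367) and with limma-voom (1.62, adjusted p = 0.0325), and without GMYC tumor 4 in edgeR (1.67, adjusted p = 0.0341), so the call depended on the test and on 1 tumor. Jag2, the second Jagged ligand, had the highest mean CPM of the members, at 98.7 ± 29.3 CPM (SD, n = 6) in GMYC and 106 ± 46.3 CPM (SD, n = 8) in GTML tumors. Its log2 fold change was 0.10 (95% interval -0.55 to 0.75, adjusted p = 0.835). GTML tumor 2 was lowest, at 25.9 CPM against 77.2 or more in the other GTML tumors, and without it the log2 fold change was 0.25 (adjusted p = 0.397).

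Per exon length, Dll3 and Dll1 changed order between the means of the models, and Jag2 stayed above Jag1. In CPM per kb of exon, Dll3 was the highest member in GMYC tumors, at 20.3 ± 10.5 (SD, n = 6), and it was above Dll1 in 6 of 6 of them. In GTML tumors Dll3 was at 8.68 ± 4.27 (SD, n = 8) and was above Dll1, at 12.7 ± 6.25, in 3 of 8. Jag2 was above Jag1 in 6 of 6 GMYC and 6 of 8 GTML tumors, the exceptions being GTML tumors 2 and 3. The plot of ligands per exon length shows each tumor.

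**Figure D2:**
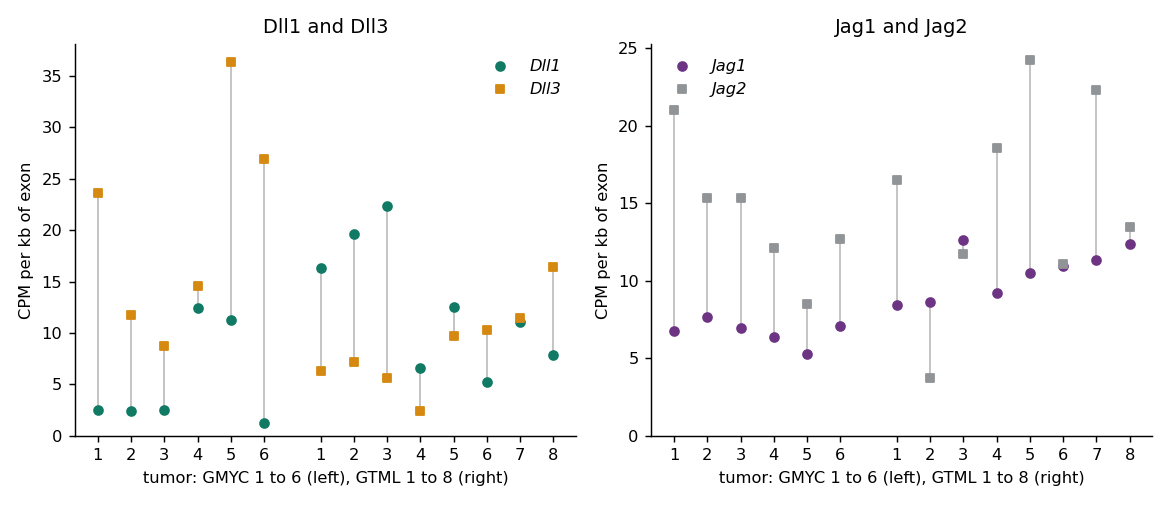
CPM per kb of exon in each tumor for Dll1 (circles) and Dll3 (squares), left, and for Jag1 (circles) and Jag2 (squares), right, with a gray line joining both values of a tumor. Dll3 lies above Dll1 in all 6 GMYC tumors and in 3 of 8 GTML tumors.

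The full order of levels per exon length in GMYC tumors was Dll3, Jag2, Hey1, Jag1, Dll1, Notch2, Notch3, Notch1, Hes5 and Hes1. In GTML tumors it was Jag2, Dll1, Jag1, Dll3, Hey1, Notch2, Notch3, Notch1, Hes1 and Hes5. Ligands thus lay above receptors, and Hes1 and Hes5 last, in the means of both models. Tumor by tumor this did not hold throughout: Dll1 was above Notch2 in 2 of 6 GMYC tumors. Many neighbors in the order were not separated beyond the spread between tumors: in GMYC tumors Jag2 was above Hey1 in 3 of 6, Notch1 above Hes5 in 3 of 6 and Hes5 above Hes1 in 3 of 6, and in GTML tumors Dll1 was above Jag1, Dll3 above Hey1, and Hes1 above Hes5, in 4 of 8 each. The gap between Hey1 and Jag1 in GMYC tumors held in 6 of 6, and that between Notch3 and Notch1 in GTML tumors in 7 of 8. Against the 19598 tested genes with a known length, the mean level of Dll3 was at percentile 78.4 in GMYC and 53.8 in GTML tumors, that of Dll1 at 43.1 and 65.9, and that of Hes1 at 19.9 and 22.5.

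None of the receptors was called. Notch1, used in neural progenitors and endothelium, was at 19.4, 31.0, 13.3, 37.2, 73.9 and 16.8 CPM in GMYC tumors 1 to 6 and at 29.3, 46.0, 46.3, 16.6, 34.7, 53.5, 44.1 and 33.2 CPM in GTML tumors 1 to 8. The ranges overlapped throughout, and the highest tumor was GMYC tumor 5. Notch1 had a log2 fold change of 0.25 (95% interval -0.49 to 0.99, adjusted p = 0.623).

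Notch2 was at 43.2, 38.4, 40.7, 73.2, 57.6 and 16.7 CPM in GMYC tumors 1 to 6, and at 44.3, 220.7, 20.6, 33.7, 25.2, 80.1, 37.0 and 70.0 CPM in GTML tumors 1 to 8. GTML tumor 2 was far above every other tumor, and the remaining 7 GTML tumors (44.4 ± 22.5 CPM, SD, n = 7) covered a range much like that of GMYC tumors (45.0 ± 19.1 CPM, SD, n = 6). The log2 fold change was 0.56 (adjusted p = 0.404) with that tumor and -0.02 (not called) without it.

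Notch3, the receptor of pericytes and vascular smooth muscle, was at 26.3, 39.8, 20.2, 52.8, 12.2 and 7.92 CPM in GMYC tumors 1 to 6 and at 42.9, 35.9, 14.6, 28.6, 31.5, 62.7, 26.4 and 60.2 CPM in GTML tumors 1 to 8. Both models reached low and high values, and the log2 fold change was 0.51 (95% interval -0.32 to 1.34, adjusted p = 0.355). The tumors with the most Notch3 were also rich in mural cell markers. The summed level of 10 such markers was 143 to 492 CPM in GMYC and 143.5 to 669 CPM in GTML tumors, and it was highest in GTML tumors 8 and 6, which also had the 2 highest Notch3 values, and lowest in GMYC tumor 6, which had the least. Elsewhere the 2 came apart: GTML tumor 7, with a sum of 143.5 CPM, and GMYC tumor 1, with 340 CPM, had nearly equal Notch3 (26.4 and 26.3 CPM). None of the 10 mural markers was called between the models by edgeR, and none was at 0 in all tumors. Their part in the Notch3 values was not tested.

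**Figure D3:**
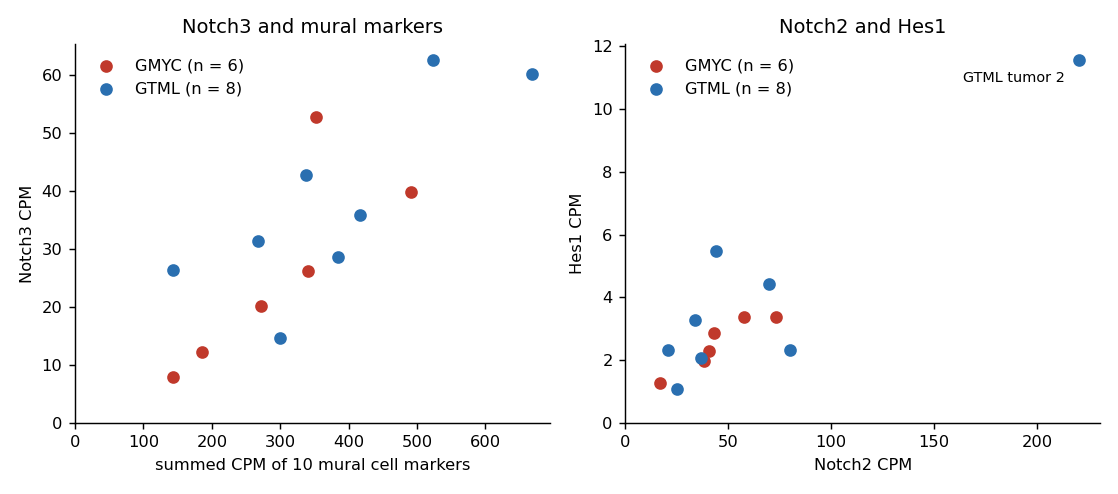
Left, Notch3 CPM against the summed CPM of 10 mural cell markers; right, Hes1 CPM against Notch2 CPM, with 1 point per tumor (red, 6 GMYC; blue, 8 GTML) and linear axes from 0. Notch3 is highest in the tumors richest in mural markers, and GTML tumor 2 lies apart from the others in both Notch2 (220.7 CPM) and Hes1 (11.55 CPM).

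The 4 Notch receptors, Notch4 included, were compared within each tumor per exon length. Notch2 made up 30.1% to 46.8% of receptor transcripts in GMYC tumors (median 39.7%) and 21.4% to 67.3% in GTML tumors (median 29.8%), the top value being GTML tumor 2. Notch3 had medians of 32.9% and 35.1%, and Notch1 of 16.7% and 16.2%, in GMYC and GTML tumors. Notch4, an endothelial receptor, had medians of 9.47% and 18.2%. These shares are given as a description, and the ranges of all 4 receptors overlapped between models.

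**Figure D4:**
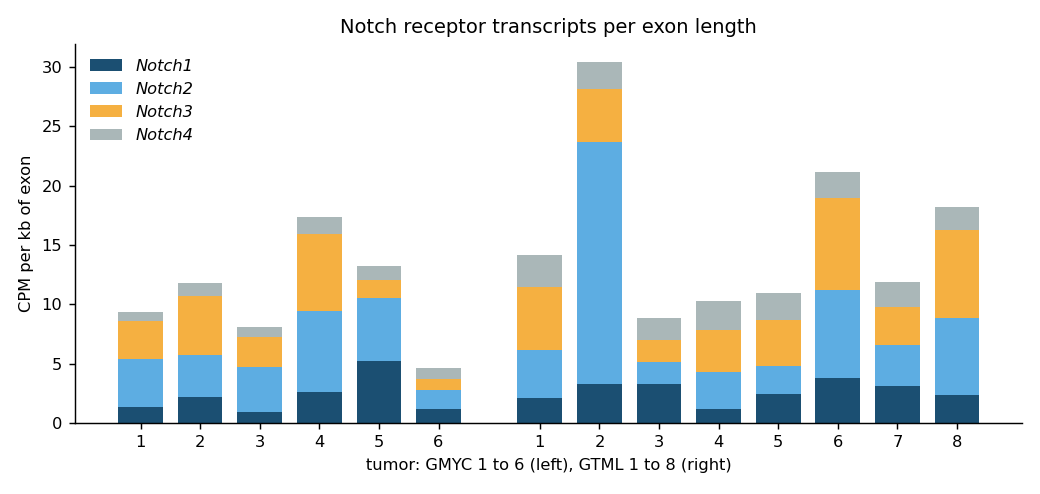
Stacked CPM per kb of exon of Notch1, Notch2, Notch3 and Notch4 in each tumor (GMYC 1 to 6, left; GTML 1 to 8, right). The bar of GTML tumor 2 is the tallest, and 67.3% of it is Notch2.

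Of the targets, Hey1, a repressor of the HES-related family expressed in progenitors and endothelium, was lower in GTML tumors. It was at 34.7, 40.0, 52.8, 53.5, 60.2 and 32.1 CPM in GMYC tumors 1 to 6 and at 21.7, 29.3, 32.5, 23.4, 24.6, 22.1, 26.4 and 41.3 CPM in GTML tumors 1 to 8. Only GTML tumors 3 and 8 reached the range of GMYC tumors. Hey1 was 1.65-fold lower in GTML tumors, a log2 fold change of -0.72 (SE 0.190, edgeR adjusted p = 0.0166), and it was called in all 14 fits that left out 1 tumor (log2 fold change -0.82 to -0.62). Its sign was the same within the higher share of small nucleolar RNAs (-0.82, adjusted p = 0.322) and the lower share (-0.71, adjusted p = 0.126), where neither value passed the test. The summed level of 11 astroglial markers was 824 to 1499 CPM in GMYC and 596 to 1013 CPM in GTML tumors, ranges that overlapped. Only 1 of the 11, Hopx, was called lower (9.71% of all genes were). However, just 1 of the 11 had a log2 fold change above 0, and their median was -0.72. No astroglial marker was at 0 in all tumors, and their part in the Hey1 result was not tested.

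Hes1 and Hes5, the classical effectors of Notch in neural progenitors, were scarce. Hes1 had 5 to 71 counts per tumor, or 2.87, 1.97, 2.29, 3.37, 3.38 and 1.27 CPM in GMYC tumors 1 to 6 and 5.47, 11.55, 2.33, 3.28, 1.08, 2.33, 2.08 and 4.43 CPM in GTML tumors 1 to 8. GTML tumor 2, the tumor with the most Notch2, also had the most Hes1, and the models overlapped. The log2 fold change was 0.69 (SE 0.453, adjusted p = 0.274), and 0.25 without that tumor (adjusted p = 0.62). Hes5 had 3 to 31 counts per tumor, or 2.58, 0.563, 1.53, 2.02, 4.99 and 2.40 CPM in GMYC tumors and 3.70, 3.42, 1.66, 0.547, 3.02, 0.970, 2.64 and 2.75 CPM in GTML tumors. Hes5 shares 433 of its 1363 exon bases with Gm20421 on the opposite strand, and reads within the shared bases cannot be told apart. The log2 fold change of Hes5 was 0.00, with a 95% interval of -0.98 to 0.98. No difference was called, and the interval does not exclude one of either sign. The Hes5 promoter, printed above, held RBPJ motifs, and those of Hes1 and Hey1 were not searched. Hey1 was above Hes1 and Hes5 together per exon length in 6 of 6 GMYC tumors, by 3.22 to 8.87 times, and in 8 of 8 GTML tumors, by 1.10 to 4.203 times.

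A wider list of 69 Notch pathway genes was read from the same fit. Of these, 67 were tested, 8 were called higher and 5 lower in GTML tumors, which is 19.4% and close to the 21.2% of all genes, and the median log2 fold change was 0.13. The plot of log2 fold changes shows called genes under the members.

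**Figure D5:**
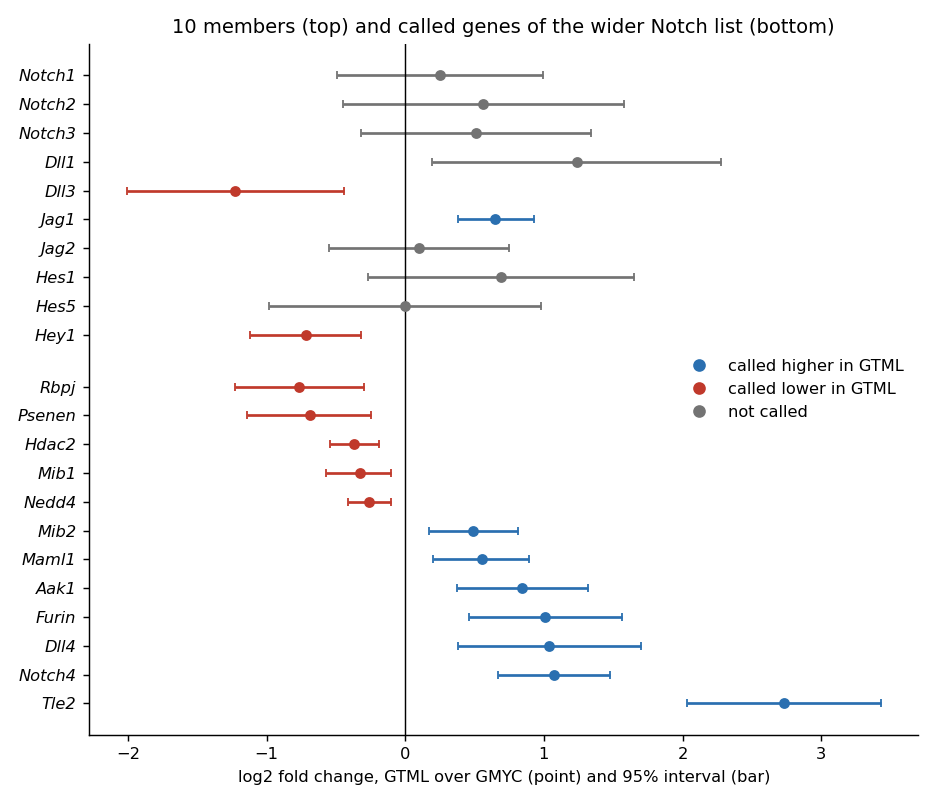
log2 fold change of GTML over GMYC (point) with its 95% interval (bar) for the 10 members, top, and for 12 of the 13 called genes of the wider Notch list, bottom, in blue where called higher in GTML, red where called lower and gray where not called. Of the members, Jag1 lies right of 0, Dll3 and Hey1 lie left of it, and the intervals of the others, apart from that of Dll1 (0.19 to 2.28, not called after adjustment), include 0.

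Among the other receptors and ligands, 2 of 7 were called (28.6%, against 21.2% of all genes tested), both higher in GTML. Notch4 was at 5.74 to 11.7 CPM in GMYC and 14.8 to 21.7 CPM in GTML tumors, without overlap (log2 fold change 1.07, SE 0.192, adjusted p = 0.00426), and was called whichever tumor was left out. Dll4, the Delta ligand of vessel tips, was at 3.54 to 8.69 CPM in GMYC and 5.47 to 16.8 CPM in GTML tumors (1.04, SE 0.312, adjusted p = 0.0313), but the call was lost without any 1 of 7 tumors (GMYC 1, 2, 3 and 6, GTML 5, 6 and 7, with adjusted p from 0.0511 to 0.0685). Mfap5, a microfibril protein that interacts with Notch pathway proteins, had the largest value of that group without being called (1.68, adjusted p = 0.064), and was called without GMYC tumor 2 (2.11, adjusted p = 0.0353) or GTML tumor 5 (1.84, adjusted p = 0.0479). Endothelial markers stood beside these values: their summed level over 11 markers was 95.2 to 249 CPM in GMYC and 178 to 395 CPM in GTML tumors. Of the 11, 2 were called higher, Kdr (1.34, adjusted p = 0.035) and Esam (0.56, adjusted p = 0.0489), where 11.5% of all genes were. Kdr was called in 5 of the 14 fits that left out 1 tumor. No endothelial marker was at 0 in all tumors, and their part in the values of Jag1, Notch4 and Dll4 was not tested.

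In receptor processing, 2 of 10 genes were called. Furin, the protease that cuts the receptor precursor, was higher in GTML (log2 fold change 1.01, SE 0.260, adjusted p = 0.017) and was called in all 14 fits that left out 1 tumor. Psenen, the smallest subunit of gamma-secretase, was lower (-0.69, SE 0.209, adjusted p = 0.0283), a call lost without GMYC tumors 3, 5 or 6 or GTML tumor 5 (adjusted p from 0.0521 to 0.072). The gamma-secretase genes Psen2, Ncstn, Aph1a, Aph1b and Aph1c and the ADAM proteases Adam10 and Adam17 were not called. Of the 9 genes of receptor glycosylation and ligand trafficking, 2 were called (22.2%, near the share of all genes). Mib1, a ubiquitin ligase that ligand endocytosis needs, was lower (-0.33, adjusted p = 0.0436) and its relative Mib2 higher (0.49, adjusted p = 0.0337). Both calls were fragile. That of Mib1 was lost in 10 of the 14 fits that left out 1 tumor, all but those without GMYC tumor 4 and GTML tumors 1, 2 and 4, and that of Mib2 in 7, those without GMYC tumors 3, 4 and 5 and GTML tumors 4, 5, 6 and 7 (adjusted p up to 0.109 and 0.0776). Neurl1b had the largest value there (1.08, adjusted p = 0.131).

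In the nuclear complex, 4 of 18 genes were called (22.2%, against 21.2% of all genes tested), 2 each way. Rbpj, the DNA-binding partner of the cleaved receptor, was at 59.6, 60.7, 69.3, 49.9, 113 and 130.5 CPM in GMYC tumors 1 to 6 and at 61.5, 53.0, 48.3, 43.2, 36.0, 59.6, 39.8 and 37.0 CPM in GTML tumors 1 to 8. GMYC tumors 5 and 6 were highest, and the other 4 GMYC tumors lay at or near the upper GTML values. The log2 fold change was -0.77 (SE 0.219, adjusted p = 0.023), and the call was lost without GMYC tumor 5 (-0.65, adjusted p = 0.0618) or GMYC tumor 6 (-0.58, adjusted p = 0.0567). It was -0.05 (adjusted p = 0.928) among tumors with the higher and -1.48 (adjusted p = 0.0067) among those with the lower small nucleolar RNA share, and the difference between the sides was not tested. Hdac2, a deacetylase of repressor complexes, was lower in GTML (-0.37, SE 0.0829, adjusted p = 0.00909) and was called whichever tumor was left out. The coactivator Maml1 was higher (0.55, adjusted p = 0.0287), and was not called without GMYC tumors 3, 4 or 5 or GTML tumors 5, 6 or 7 (adjusted p up to 0.0645).

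Among the other HES and HEY genes, Nrarp and the Groucho corepressors that HES proteins recruit, 9 of 11 were tested. Of these, 1 was called (11.1%, against 21.2% of all genes tested). Tle2, one of the corepressors, was at 1.01 to 2.69 CPM in GMYC and 6.83 to 17.3 CPM in GTML tumors, without overlap (log2 fold change 2.73, SE 0.330, adjusted p = 0.000742), whereas Tle1, Tle3 and Tle4 were not called. The remaining genes of this group that were tested, Hes6 (-0.41, adjusted p = 0.0663), Hes7, Hey2, Heyl and Nrarp, were not called either. Of 14 inhibitors and turnover genes, 2 were called (14.3%, against 21.2% of all genes tested). The kinase Aak1 was higher (0.84, SE 0.226, adjusted p = 0.0195) and was called whichever tumor was left out. The ubiquitin ligase Nedd4 was lower (-0.26, adjusted p = 0.0231), a call lost without GMYC tumors 1 or 3 or GTML tumor 7 (adjusted p from 0.0512 to 0.0544). Dtx3l had the largest value of this group without being called (-0.87, adjusted p = 0.213).

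The list of proneural and related factors went both ways. Of 11, 8 were tested, and 2 were called higher and 2 lower in GTML, where 11.5% of all genes were called higher and 9.71% lower. Neurog2 had 0 to 4 counts in GMYC tumors and 4 to 64 counts in GTML tumors (0.764 to 11.3 CPM). Its fold change thus depends on the few GMYC counts. No GMYC tumor was above 0.644 CPM, so Neurog2 passed the filter on low counts only through GTML tumors. Its edgeR call (adjusted p = 0.00831) is therefore given as a description. GTML tumors 1 and 2, both of higher small nucleolar RNA share, held the most, at 64 and 44 counts. Within the lower share the log2 fold change was 2.23 (edgeR adjusted p = 0.118). Neurod2 was higher in GTML (1.43, adjusted p = 0.0241), a call lost without GMYC tumors 1 or 5 (adjusted p = 0.0546 and 0.0535). Neurod1 (-0.23, adjusted p = 0.0426) and Olig2 (-2.35, adjusted p = 0.0311) were lower, and Olig2 is also an oligodendrocyte precursor marker used beside Dll3. The call of Neurod1 was lost in 11 of the 14 fits that left out 1 tumor, all but those without GMYC tumor 4 and GTML tumors 2 and 4 (adjusted p up to 0.0975), and that of Olig2 without GMYC tumors 3 or 5 or GTML tumors 3 or 5 (adjusted p up to 0.0884).

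For each member, the 2 tested genes with the most similar pattern were found by Pearson's r of log2 CPM over the 14 tumors after subtracting the mean of each model, among 19597 genes. The points share library depth and tumor make-up, and the values are given as a description. Notch3 was most like Pdgfrb, the receptor that defines pericytes (r 0.93), and Ephb4, a receptor of venous endothelium (r 0.92). Notch2 was most like Wnt5a (r 0.96), a secreted Wnt ligand, and Rbms3 (r 0.95), and Hes1 like Ifngr2 (r 0.94) and Tmem126a (r 0.91). Jag2 was most like Abca2, a lipid transporter of myelinating cells (r 0.94), and Sez6l2 (r 0.89), although Spearman's rho for Sez6l2 was 0.58. Jag1 was most like Tubgcp4 and Dnajb13 (r 0.91 each), Dll3 like Lmntd1 and Nkain4 (0.88 each), Dll1 like Enc1 (0.87) and Mindy4 (0.85), Notch1 like Tnip2 (0.86) and Gadd45g (0.85), Hey1 like Dhx29 (0.88) and Nabp1 (0.83), and Hes5 like Kcnj12 (0.85) and Btbd17 (0.83). Each value is the highest or second highest over all genes searched. No member was among the genes closest to another.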

How the data were processed

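RNA of 6 GMYC and 8 GTML tumors was sequenced on an Ion Torrent system. The authors aligned reads to mm9 with STAR followed by Bowtie and counted them with featureCounts (Subread 1.5.2). The submitters' processing notes name STAR 2.4.0 and Bowtie2 2.2, whereas the study's methods name other versions of both aligners, and which were used for these counts is not settled. They deposited whole-number counts per gene without normalization. The handling of strand is not given in the sources used here. Parts of the exons of Notch1, Notch3, Dll1 and Hes5 overlap a gene on the opposite strand, and 541 exon bases of Notch2 overlap Gm42820 on the same strand. The partners of Notch1 had 222 and 3 counts over all tumors, and that of Hes5 had 18. The partners of Notch2, Notch3 and Dll1 were not among the genes counted. Reads within these shared parts cannot be told apart from those of the partner. Of the columns deposited, 18 that match no sample label were not used.

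Symbols and exon lengths came from the GRCm38 annotation by Ensembl identifier (32620 of 37310 genes, 87.4%). The comparison used edgeR 4.0.16 (R 4.3.3) with TMM and its quasi-likelihood test on genes whose CPM passed 1 in 3 or more tumors, with Benjamini-Hochberg adjustment over all genes tested and calls at an adjusted p under 0.05. SEs came from the fit. Total counts were 4602294 to 7279811 per tumor. Nothing in the labels says that tumors came from separate animals, so p-values measure the spread between these samples. No 2 tumors of a model agreed within sampling noise (lowest chi-square 5.67 per degree of freedom). No member exceeded 0.226 counts per exon base, where the highest protein-coding gene reached 1.27. In counts simulated for this comparison to test the code, edgeR called 200 of 200 genes changed 4-fold and 8 of the other genes among 20463.

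Members and lists were chosen with earlier results of these data known. Genes named were the members, called genes of the wider Notch and proneural lists, the largest value in each role (1 called gene is not reported here), the 2 genes most like each member, and markers; Kdr, Esam, Hopx, Olig1 and genes given only as not called fall outside this rule and were chosen after their values were seen. Alternatives were DESeq2 1.42.0, limma-voom (limma 3.58.1), no TMM, other filters, a stricter call rule, leaving out each tumor, a block for the replicate number, either side of the small nucleolar RNA split or a term for it, a Y-linked covariate, protein-coding genes only and thinned counts. Tumors 1 to 6 without the block were added after the data had been seen.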

Additional observations from a re-analysis of the deposited data

Results flagged for a closer look

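In groups of 6 or 8 tumors, the highest or lowest value was set against its nearest neighbor by Dixon's test at the 95% level. Over 64 groups of named genes, 7 passed, where chance gives about 3.2 (1 in 20). Among the members, 2 of 20 groups passed, both through GTML tumor 2: Notch2 at 220.7 CPM, with the next GTML tumor at 80.1 CPM, and Hes1 at 11.55 CPM, with the next at 5.47 CPM. The same tumor had the lowest Jag2 (25.9 CPM), which did not pass.

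Outside the members, Myc was lowest in GMYC tumor 6, at 33.37 CPM against 134 CPM or more in the other GMYC tumors. That tumor also had the lowest Notch2, Notch3, Dll1, Hes1 and Hey1 of its model. Its Dll3 (76.6 CPM) and Jag1 (41.4 CPM) were the second highest, and its Rbpj (130.5 CPM) was the highest. Notch1, Jag2 and Hes5 lay in between. A link of these values to Myc was not tested. Dll4 was highest in GMYC tumor 5 (8.692 CPM), Dtx3l in GMYC tumor 2 (43.2 CPM) and Tle2 in GMYC tumor 6 (2.687 CPM), and Nedd4 was lowest in GMYC tumor 4 (768.8 CPM).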

How the results depend on the processing

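Jag1 and Hey1 kept their direction under every alternative run, and so did Dll3, Dll1, Hes1 and Notch3. The members called higher, 1 in the report, were 2 with DESeq2 and with limma-voom (Dll1 added) and 0 among tumors of higher small nucleolar RNA share and under the stricter rule. Those called lower, 2 in the report, were 0 in both of these, and 1 among tumors of lower share and with the Y-linked covariate. With that covariate in edgeR, Jag1 was 0.57 (adjusted p = 0.0434), Hey1 -1.0 (adjusted p = 0.0198) and Dll1 0.8 (adjusted p = 0.38). Among the 4 against 2 tumors of higher share, edgeR called 0 genes higher and 2 lower of all genes, with 2420 genes and 5 members at an unadjusted p under 0.05. Leaving out each tumor gave 1 to 2 members higher and 1 to 2 lower. The wider list had 13 higher with DESeq2 and 3 lower with the filter of at least 1 count. It had 0 higher and 0 lower in the higher share, 5 and 3 in the lower share, 5 and 3 with a term for the split, 4 and 0 with the Y-linked covariate, 2 and 0 under the stricter rule, and 4 to 11 and 2 to 7 when leaving out each tumor. Over all genes, 1328 were higher and 1334 lower in the lower share, 1428 higher with the split term, 1128 and 549 with the Y-linked covariate, 1607 and 1357 among protein-coding genes, 444 and 232 under the stricter rule, and 1433 to 3264 and 1184 to 3166 when leaving out each tumor.

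Replicate numbers did not pair the tumors: same-numbered tumors correlated at -0.212 to 0.24, and 1 of 6 was closest to its own number. With the replicate number as a block over tumors 1 to 6 of each model, 0 members were higher and 1 lower (Dll3), 1 and 0 genes of the wider list, and 161 and 90 of all genes. The same tumors without the block gave 3 and 1 of the wider list and 1326 and 1054 of all genes.

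Of the members, Notch1, Notch2, Jag2 and Hes5 changed sign under some alternatives. Notch1 was -0.26 in the lower share, Notch2 -0.02 to 0.76 when leaving out each tumor (the lowest without GTML tumor 2), and Jag2 -0.05 with limma-voom, -0.12 with the block, -0.64 in the higher share and -0.02 to 0.26 when leaving out each tumor. Hes5 was -0.02 with the filter of at least 1 count and among protein-coding genes, -0.11 with the block, -0.08 without it, -0.94 in the lower share, -0.01 with the split term, -0.27 with the Y-linked covariate, -0.21 when thinned and -0.21 to 0.36 when leaving out each tumor. Dtx3l was 0.21 in the lower share. The cause was not tested. Hes1 and Hes5, at 3 to 71 counts per tumor, had SEs of 0.453 and 0.465. Dll1, at 37 to 567 counts, had an SE of 0.493. Whether depth limits Hes1 and Hes5 was not tested.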
